A study of Mus musculus with 3 samples.

Results

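The cells described here were fibroblasts of the mouse ascending aorta that carried more Gdf10, Hsd11b1 and Cpxm2 transcript than transcripts of the other fibroblast programs considered. They were chosen by thresholds on their own counts and not by clustering. A barcode was kept with 600 to 5000 genes and at most 10% of UMIs (unique molecular identifiers, each standing for 1 captured transcript) from mitochondrial genes. On a scale of UMIs per 10000 of the barcode, a gated fibroblast had Dcn at 20 or more, a sum of Acta2, Myh11, Tagln, Cnn1, Myl9 and Tpm2 under 100, and no UMI of Ptprc or Pecam1. It entered the Gdf10 gate when the sum of Gdf10, Hsd11b1 and Cpxm2 was at least 3 and larger than both the sum of Pi16, Cd248 and Scara5 and the sum of Comp, Chad and Fmod, whose own leaders formed the Pi16 gate and the Comp gate. Each limit on a cell's counts is a cut through a range of values, so the cells are called by the rule and not as a separate type. This rule selected 1734 of 6057 gated fibroblasts and of 26158 barcodes that passed the filters.

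The series held 3 droplet libraries of male mice at postnatal day 45 on the C57BL/6J background, 1 for each condition, and in each library the aortas of several mice were pooled before dissociation. WT was the wild-type littermate library. The mgR library came from mice homozygous for the hypomorphic Fbn1 mgR allele (Fbn1 mgR/mgR), backcrossed for 10 generations, which model Marfan syndrome with a low supply of fibrillin-1 in all cells from conception. The mgR-LOS library came from mice of the same genotype that drank 0.6 g/L losartan, a blocker of the angiotensin II type 1 receptor, starting at postnatal day 16, and the labels do not say whether the mgR mice drank vehicle. The files held 83338726 UMIs over 7858 barcodes in WT, 123956320 over 10657 in mgR and 121436873 over 14663 in mgR-LOS, of which the members carried 1335111, 10163787 and 6247440 UMIs. Of the barcode sequences, 22 were shared by WT and mgR, 29 by WT and mgR-LOS and 46 by mgR and mgR-LOS, and none of the shared ones was a member in both libraries. With 1 library per condition there was no replicate of any condition, so no difference between conditions was tested and every interval given here is a 95% interval for counting error only, which leaves out the spread between mice and between preparations.

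Fibroblasts of the aortic adventitia and outer media make collagen, elastic fiber proteins and the proteoglycans that bind them, and they release chemokines and growth factors toward immune and mural cells. Gdf10 (also called Bmp3b) is a secreted ligand of the TGF-beta superfamily, Hsd11b1 is the enzyme that turns inactive 11-keto glucocorticoids into active ones inside the cell, and Cpxm2 is a secreted member of the carboxypeptidase family without known peptidase activity. Cygb encodes cytoglobin, a globin of fibroblasts and stellate cells, and Col1a1 encodes a chain of type I collagen. In Marfan syndrome, loss of fibrillin-1 weakens the microfibrils on which elastin is laid down and which hold latent TGF-beta.

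In the annotation of GRCm38 (GENCODE release M21), Gdf10 (ENSMUSG00000021943) lies at chr14:33923587-33937983, plus strand. Hsd11b1 (ENSMUSG00000016194) lies at chr1:193221634-193264075, minus strand, and Cpxm2 (ENSMUSG00000030862) at chr7:132032687-132154739, minus strand. The stretches of 250 bases just before the RefSeq start sites of Gdf10 and Cpxm2 (GRCm38.p6) are shown, 5′ to 3′ on the strand of each gene, because these genes chose the cells. They are chr14:33923337-33923586 on the plus strand and chr7:132154742-132154991 on the minus strand, and capitals mark each match to the GC box GGGCGG on either strand.
Gdf10: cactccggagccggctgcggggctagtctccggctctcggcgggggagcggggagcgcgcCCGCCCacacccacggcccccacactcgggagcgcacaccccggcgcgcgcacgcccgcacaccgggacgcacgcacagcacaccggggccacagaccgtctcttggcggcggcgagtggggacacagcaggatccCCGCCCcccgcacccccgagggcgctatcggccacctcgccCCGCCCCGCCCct
Cpxm2: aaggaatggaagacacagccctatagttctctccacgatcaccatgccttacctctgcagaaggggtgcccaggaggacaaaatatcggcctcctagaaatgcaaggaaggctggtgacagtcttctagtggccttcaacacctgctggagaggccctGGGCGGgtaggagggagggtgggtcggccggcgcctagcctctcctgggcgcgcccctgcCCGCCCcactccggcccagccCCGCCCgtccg
The Gdf10 stretch was 78.8% G and C with 35 CpG dinucleotides, a higher G and C content than 98.3% of 32817 such stretches in the genome, and the Cpxm2 stretch was 64.0% with 13. Gdf10 held 4 matches, of which the last pair share a base, and Cpxm2 held 3, where 32.7% of all stretches held at least 1. Neither held TATAAA (12.4% of all), TGACCT, a sequence bound by nuclear receptors of the COUP-TF family (14.0%), or TTGCNNAA, the pattern of C/EBP factors (9.57%), on either strand. The corresponding stretch of Hsd11b1 is not shown because it lies within annotated exons. It was 54.4% G and C, above 56.5% of all stretches, and held 0 matches to any of these motifs. The motifs were picked after the expression values were known, and a match is a description of the letters only.

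Each member of the rule and the label was found in these cells in all 3 libraries. Levels are given as CPM, the UMIs of a gene scaled to 1000000 UMIs, summed over all cells of a gate in 1 library, and the 3 rule genes are given as a description, with no test, because they chose the cells. Gdf10 was at 905 CPM in WT (854 to 957), 1272 in mgR (1250.3 to 1294) and 1066 in mgR-LOS (1040.3 to 1092). Hsd11b1 was at 342 CPM in WT (311 to 374), 602 in mgR (587 to 617) and 364 in mgR-LOS (349 to 379). Cpxm2 was at 329 CPM in WT (299 to 361), 465 in mgR (452 to 478) and 285 in mgR-LOS (272 to 299). All 3 genes stood highest in mgR, and Cpxm2 stood lowest in mgR-LOS. Cygb, which the rule did not use, was at 1082 CPM in WT (1026 to 1139), 1119 in mgR (1098 to 1139) and 1522 in mgR-LOS (1492 to 1554), highest in mgR-LOS. In the Pi16 gate Cygb was at 759.8, 823 and 968 CPM for WT, mgR and mgR-LOS, in the Comp gate at 302, 359.5 and 597 CPM, and in the immune gate (Ptprc detected, Dcn under 5 per 10000 and no Pecam1), which held Col1a1 in 11.2%, 15.7% and 25.8% of barcodes thinned to 2000 UMIs, at 3.35, 4.0 and 5.24 CPM. Col1a1 was at 9342 CPM in WT (9179 to 9508), 11019 in mgR (10954 to 11083) and 14136 in mgR-LOS (14043 to 14230.0), above the 6752, 5819 and 5779 CPM of the Pi16 gate and the 5427, 5419.5 and 9843 CPM of the Comp gate in the matching libraries.

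**Figure D1:**
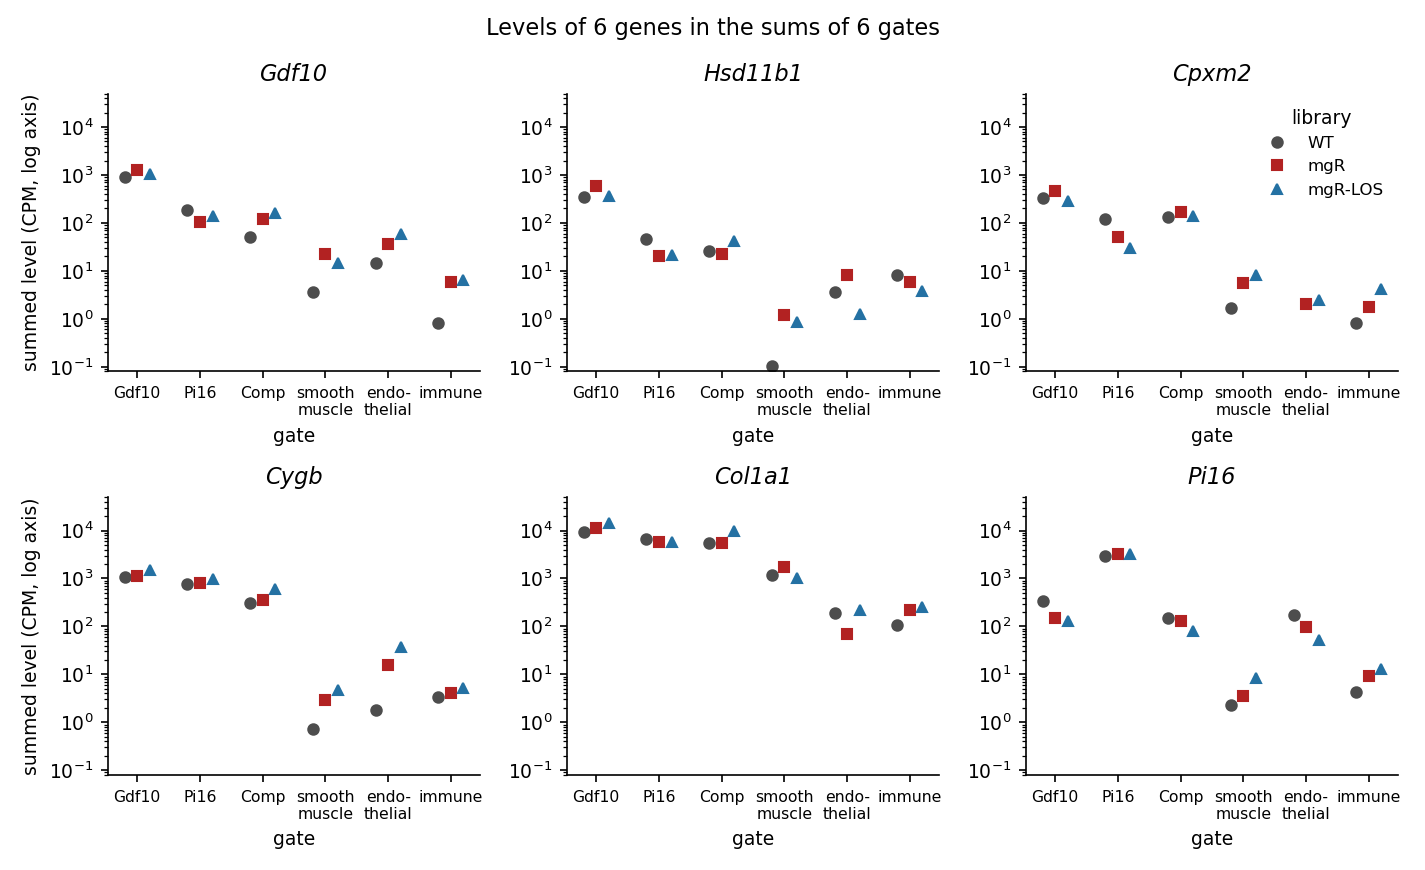
Summed level (CPM, log axis) of 6 genes in 6 gates of the WT (circles), mgR (squares) and mgR-LOS (triangles) libraries, 1 point per library; a level of 0 is not drawn. The 3 rule genes of the Gdf10 gate stand between 285 and 1272 CPM in that gate, and Cygb and Col1a1 are present in all fibroblast gates and highest in the Gdf10 gate of each library.

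Thinned to 2000 UMIs per barcode so that depth was equal, 62.7% of members carried a Gdf10 UMI in WT (84 of 134), 77.9% in mgR (625 of 802) and 75.0% in mgR-LOS (563 of 751); without thinning the WT share was 81.7%. In the immune gate the thinned shares were 0.80%, 1.11% and 0.576%, from barcodes with median depths of 8726, 8170.5 and 7238 UMIs beside 9702, 12294 and 7884 UMIs in the members. Cygb was seen in 81.3% (73.7 to 87.5, Clopper-Pearson), 80.2% (77.2 to 82.9) and 89.9% (87.5 to 91.9) of thinned members. Fewer members carried Hsd11b1 (41.0%, 51.5% and 37.3%) or Cpxm2 (42.5%, 46.4% and 31.8%).

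Markers of endothelial and immune cells were low in the summed members, and those of smooth muscle and pericytes were higher. Of 8 endothelial markers none reached 50 CPM, their sum was 5.99, 5.31 and 9.60 CPM in WT, mgR and mgR-LOS, the most abundant was Kdr, and Pecam1 was at 0 by the rule. Of 9 macrophage markers none reached 50 CPM; their sum was 24.0, 124 and 102 CPM, with Lyz2 the most abundant at 7.49, 41.5 and 33.6 CPM beside 6699, 7040.0 and 5548 CPM in the immune gate, and Ptprc was at 0 by the rule. The macrophage sum was higher in both mutant libraries, and its part in the differences described below was not tested. The 9 lymphocyte and neutrophil markers summed to 0, 3.35 and 1.28 CPM and the 5 red cell genes to 6.74, 12.0 and 236 CPM. Smooth muscle transcripts, which the rule limits, summed to 1711, 2436 and 2354 CPM over 10 genes, with Acta2 at 504, 765 and 787 CPM against 22307, 21101 and 20336 CPM in the smooth muscle gate. That gate was cut by a sum of the rule's 6 smooth muscle genes, Acta2 among them, of at least 200 per 10000. It also required Dcn under 5 per 10000 and no UMI of Ptprc or Pecam1. The 7 pericyte markers summed to 442, 622 and 567 CPM, beside 261, 141 and 206 CPM in the Pi16 gate, and 4 of them reached 50 CPM. Abcc9, which encodes the regulatory subunit of a potassium channel, was the most abundant at 298, 267 and 368 CPM. Its channel partner Kcnj8 was at 75.6, 66.0 and 84.0 CPM, and Rgs5 and Notch3 are described below. The more specific Higd1b and Vtn had no UMI in WT, which allows up to 2.25 CPM, and were at or under 0.480 CPM in mgR and mgR-LOS. No doublet caller was run. The median depth of all gated fibroblasts was 11409, 12157 and 8013 UMIs, close to that of the members in mgR and mgR-LOS and above it in WT. Leaving out members with a UMI of Cdh5, Kdr, C1qa, Csf1r or Cd74 left 131, 608 and 609. The other listed markers, Lyz2 among them, were not part of this limit.

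Members just inside the limit had less Cygb than members far inside it in each library, and more than the cells just outside it in the mutant libraries. In mgR the 18 members with a sum from 3 to under 4 had a Cygb level of 923 CPM, the 16 gated fibroblasts whose leading sum lay from 2 to under 3 had 304 CPM, and the 665 members with a sum of 10 or more had 1183 CPM. In mgR-LOS the corresponding Cygb levels were 1074 CPM (40 cells), 542 CPM (27 cells) and 1619 CPM (538 cells). In WT they were 619 CPM (6 cells), 638 CPM (7 cells) and 1191 CPM (100 cells). Most members lay far from the limit: the median sum was 14.7 per 10000 in WT, 21.2 in mgR and 14.3 in mgR-LOS, although 7, 23 and 62 members carried fewer than 3 UMIs of the 3 genes.

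The members varied in how many of the 3 rule genes they showed. All 3 genes were seen in 36.6% of members in WT (52 cells), 55.4% in mgR (450) and 35.2% in mgR-LOS (274), and 1 gene alone in 24.6%, 11.9% and 27.9%. Cells with all 3 were deeper, with medians of 11322.5, 13227 and 9010.5 UMIs against 7374, 8338 and 6183 in cells with 1, and the part of depth in this difference was not tested. Summed levels of some genes were higher in cells with all 3 in every library and those of others were not. Smoc1, a secreted calcium-binding matricellular protein and BMP modulator, was at 501, 339 and 367 CPM in cells with all 3 genes and at 233, 127 and 147 CPM in cells with 1. Mgp, which encodes matrix Gla protein, an inhibitor of vascular calcification, was at 32208, 39528 and 29228 CPM in cells with all 3 genes and at 21549, 24674 and 12254 CPM in cells with 1. Col1a1, in contrast, was lower in cells with all 3 genes in WT and mgR-LOS and higher in mgR, at 7983, 11379.5 and 13437 CPM against 10528, 9335 and 14419 CPM in cells with 1. Of the single-gene members, Gdf10 alone marked 19, 73 and 168 cells, Hsd11b1 alone 5, 9 and 22, and Cpxm2 alone 11, 15 and 27.

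The share of these cells among gated fibroblasts was lowest in WT and highest in mgR. They made up 142 of 1173 gated fibroblasts in WT, 12.1% (10.3 to 14.1, Clopper-Pearson). In mgR they were 813 of 2049, 39.7% (37.6 to 41.8), and in mgR-LOS 779 of 2835, 27.5% (25.8 to 29.2). The difference of mgR from WT was 27.6 percentage points (24.7 to 30.3, Newcombe) and that of mgR-LOS from mgR was -12.2 points (-14.9 to -9.52), while mgR-LOS stayed 15.4 points (12.8 to 17.8) above WT. No interval overlapped another, but each share came from 1 pool of mice. Of all barcodes that passed, the members were 2.65% in WT, 10.1% in mgR and 6.12% in mgR-LOS, libraries in which the smooth muscle gate held 51.7%, 33.8% and 54.3% and the immune gate 2.42%, 18.3% and 5.68%. The part of dissociation and of the whole cell mixture in these shares was not tested.

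**Figure D2:**
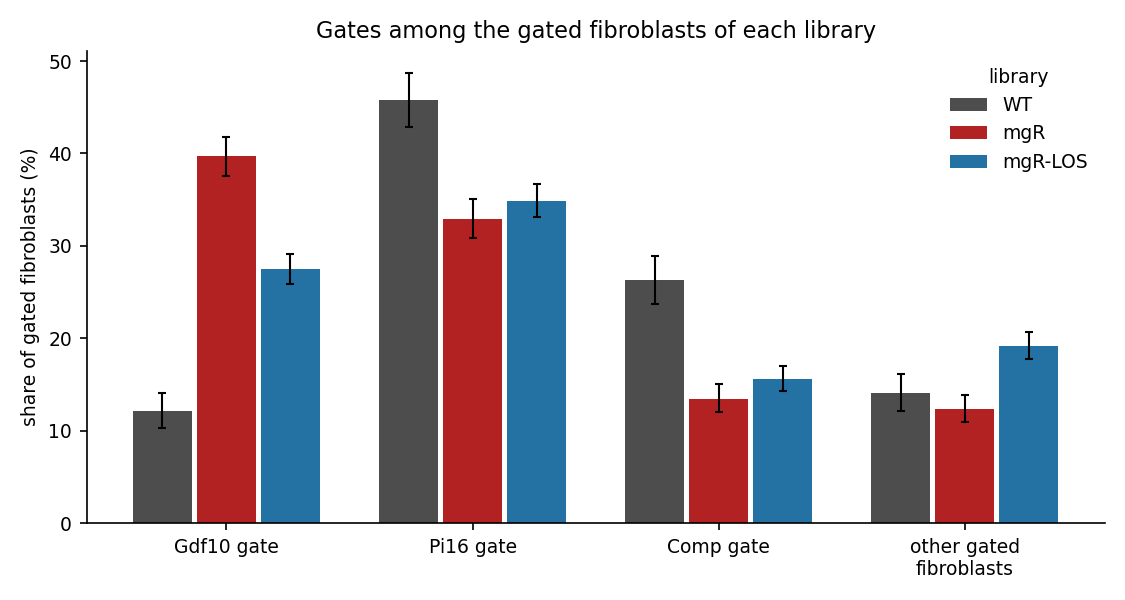
Share of gated fibroblasts (%) in the Gdf10, Pi16 and Comp gates and in none of them (other), for the WT, mgR and mgR-LOS libraries; error bars are 95% Clopper-Pearson intervals, and the 21, 31 and 80 cells with tied sums are in no gate. The Gdf10 gate holds 12.1%, 39.7% and 27.5%, and the Pi16 gate 45.8%, 32.9% and 34.9%.

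How far the share differed depended on the requirement that the Gdf10 sum lead. Of gated fibroblasts, 467 of 1173 in WT, 1063 of 2049 in mgR and 1231 of 2835 in mgR-LOS had a Gdf10, Hsd11b1 and Cpxm2 sum of at least 3 whether or not it led, which is 39.8%, 51.9% and 43.4%. The ratio of mgR to WT was then 1.30, against 3.28 with the lead, and the ratio of mgR-LOS to mgR 0.837, against 0.693. Of the cells above the limit, the Gdf10 sum led in 142 of 467 in WT, 813 of 1063 in mgR and 779 of 1231 in mgR-LOS. Within the members Pi16, a peptidase inhibitor that marks adventitial progenitor-like fibroblasts, was at 332 CPM in WT, 148 in mgR and 128 in mgR-LOS. Without thinning, 78.2%, 73.4% and 62.5% of members carried a UMI of Pi16, Cd248 or Scara5. Thinned to 2000 UMIs, 38.1%, 18.5% and 18.0% of members carried a Pi16 UMI, beside 0.80%, 1.32% and 2.45% of the immune gate. Leaving Gdf10 out of the sum gave shares of 5.46%, 23.9% and 11.9%, and the order of the libraries was the same.

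Hsd11b1 was seen beside Gdf10 most often in mgR, measured over all gated fibroblasts thinned to 2000 UMIs, whichever gate they entered. In mgR, Hsd11b1 was seen in 45.3% (41.7 to 48.9) of the 760 cells with a Gdf10 UMI and in 9.11% (7.56 to 10.8) of the 1241 without. In mgR-LOS these shares were 28.1% (25.1 to 31.2) of 851 and 6.57% (5.48 to 7.79) of 1843, and in WT 22.0% (16.8 to 27.9) of 232 and 6.50% (4.97 to 8.32) of 892. These shares describe genes the rule used and are no test. Cpxm2 was seen in 40.3% (36.8 to 43.8) of cells with and 14.99% (13.0 to 17.1) of cells without Gdf10 in mgR, and in 23.4% (20.6 to 26.4) and 11.3% (9.93 to 12.9) in mgR-LOS. In WT the shares of Cpxm2 were 23.3% (18.0 to 29.3) and 19.7% (17.2 to 22.5). Pi16 went the other way in the mutants, with 29.1% beside Gdf10 and 45.9% without it in mgR and 31.8% and 41.5% in mgR-LOS, whereas in WT it was seen in 69.8% (63.5 to 75.7) of cells with Gdf10 and 49.7% (46.3 to 53.0) of cells without. Fmod, of the third sum, was seen in 25.4% of cells with and 33.5% of cells without Gdf10 in WT, in 38.2% and 20.9% in mgR and in 34.4% and 21.1% in mgR-LOS.

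Apart from the genes of the rule, the members differed from the Pi16 gate in a set of genes that kept its direction in all 3 libraries. The rule separated the gates on these same cells, so the differences describe it and were not tested. Of 2902 genes with a mean of at least 50 CPM over the gates, 55 (1.90%) were at least 2-fold higher in the Gdf10 gate in every library and 84 (2.89%) at least 2-fold lower. Angpt2, the ligand that antagonizes Tie2 on endothelium, was at 81.6, 129 and 155 CPM in WT, mgR and mgR-LOS and 14.1, 28.0 and 19.3 times its Pi16 gate level. Nr2f2, the orphan nuclear receptor COUP-TFII known from venous endothelium and stromal cells, was at 454, 443 and 418 CPM and 4.53, 5.92 and 4.05 times its Pi16 gate level. Both subunits of soluble guanylate cyclase, the receptor for nitric oxide, were among them: Gucy1a1 was at 199.98, 172 and 191 CPM, 9.60, 6.58 and 5.99 times the Pi16 gate, and Gucy1b1 was 3.35, 7.48 and 4.29 times. The matrix was represented by Fbln7, a fibulin, at 65.2, 142 and 173 CPM (8.66, 6.77 and 6.42 times), and by Smoc1 (4.04, 21.9 and 9.75 times). Genes better known from contractile cells were in the set as well, with Fhl2, a LIM-domain cofactor, at 57.7, 272 and 87.4 CPM, Mylk, the kinase of myosin light chain, at 63.7, 101 and 101 CPM, and Itga8, the alpha8 integrin of mural cells and myofibroblasts, at 114, 113 and 105 CPM. In the smooth muscle gate Mylk was at 1226, 1168 and 1160.4 CPM and Itga8 at 1479, 1184 and 1159.9 CPM, whereas Angpt2 was at 21.8, 31.6 and 36.9 CPM and Fbln7 at 0.610, 4.45 and 3.40 CPM. The rest of the 15 genes with the largest smallest ratio were Tns3, Tmem176a, Ptprd, G0s2, Rasl11a and Cdc42ep3, the 3 ratios of which lay between 3.16 and 7.21.

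**Figure D3:**
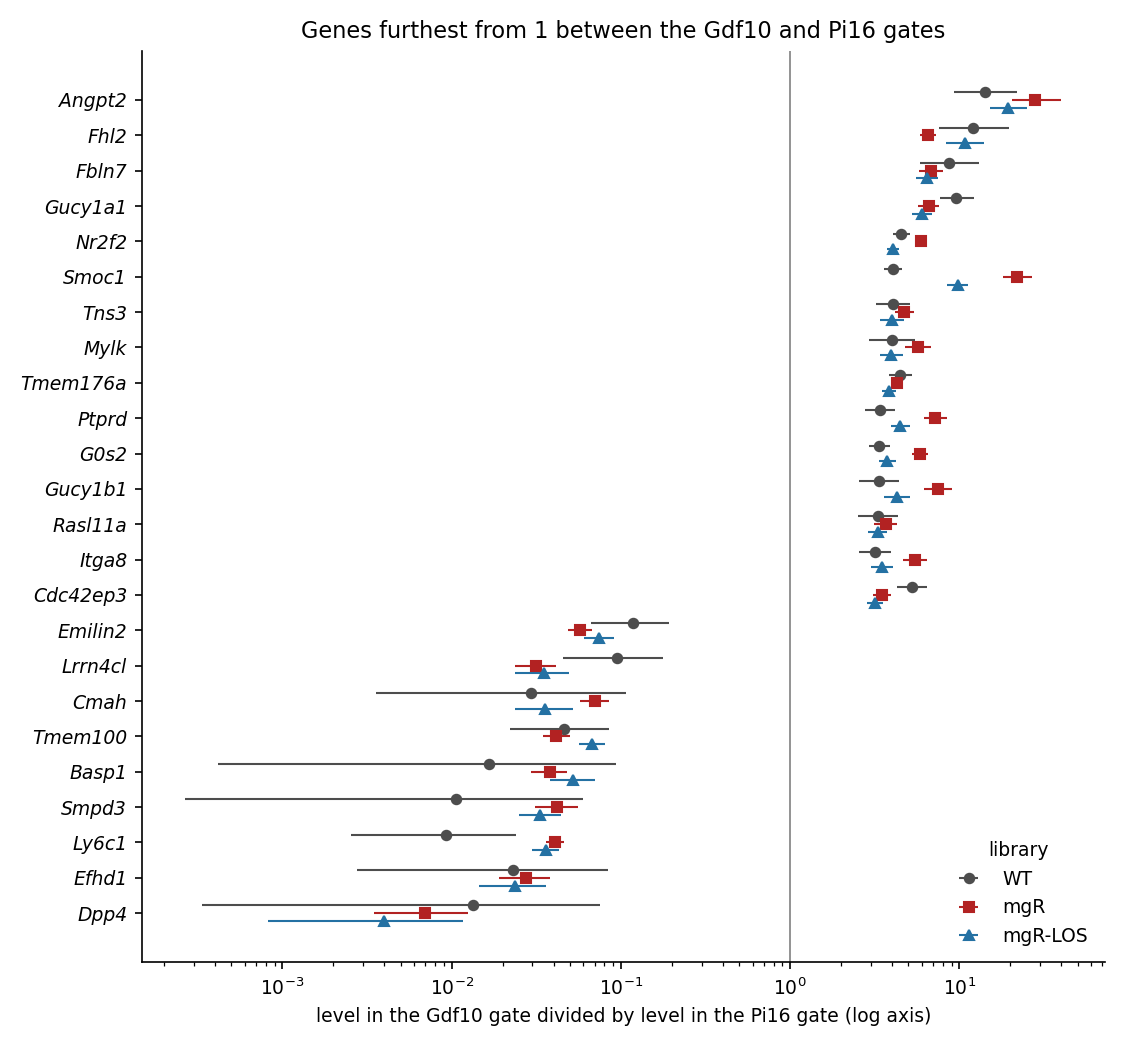
Ratio of the summed level in the Gdf10 gate to that in the Pi16 gate (log axis) for 24 of the 25 genes named by the rule, 1 point per library (WT circles, mgR squares, mgR-LOS triangles) with 95% counting intervals; Pla1a is not drawn because no UMI of it was seen in the WT members. The 15 upper genes lie between 3.16 and 28.0 in all libraries and all the others at or under 0.118.

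The genes lowest in these cells against the Pi16 gate included surface genes of adventitial fibroblasts. Dpp4, the peptidase CD26 of adventitial and interstitial progenitor fibroblasts, had 1, 11 and 3 UMIs in all the members of WT, mgR and mgR-LOS and was at 56.1, 154 and 120.2 CPM in the Pi16 gate. Pla1a, a phospholipase, had 0, 36 and 6 UMIs, and the 0 in WT allows up to 3 counts, or 2.25 CPM, beside 56.9 CPM in the Pi16 gate of that library. Ly6c1, a GPI-anchored antigen, was at 3.00, 28.8 and 19.0 CPM in the members and 322, 707 and 529 CPM in the Pi16 gate. Efhd1, Smpd3, Basp1, Tmem100, Cmah, Lrrn4cl and Emilin2 completed the 10 lowest, with ratios between 0.0106 and 0.118. Of 17 genes compared from a list of adventitial fibroblast genes without the rule genes, 13 were at least 2-fold lower in all libraries and none higher. Over all genes compared, 2.89% were lower and 1.90% higher. Dpp4, Ly6c1 and Efhd1, already named among the 10 lowest, are 3 of these 13. The minimum is a mean over the gates, so genes such as Dpp4 and Efhd1 passed it only through the Pi16 gate. Of the 20 listed, 10 reached 50 CPM in the members. The count of lower genes is therefore partly set by the minimum and was not tested. Igfbp5, which encodes an IGF-binding protein, was 0.0941, 0.0469 and 0.130 times, and Ly6a, which encodes the surface antigen Sca-1, 0.179, 0.134 and 0.130 times its Pi16 gate level.

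Matrix genes fell on both sides of this comparison. Of 23 other matrix glycoproteins, Mgp and Smoc1 were at least 2-fold higher in every library and 6 were lower (Fn1, Tnxb, Vcan, Has1, Fndc1 and Nid1). Mgp was at 26784, 34840.0 and 21698 CPM in the members and 9868, 6845 and 5605 CPM in the Pi16 gate, but the Comp gate held 33713, 29022 and 18644 CPM and the immune gate 618, 2979.8 and 2199 CPM. Of 17 elastic fiber and microfibril genes, Fbln7 and Emilin1 were higher and Fbn1, Fbln2, Efemp1, Mfap5, Emilin2 and Loxl2 lower. Mfap5, a microfibril-associated glycoprotein, was at 912, 838 and 665 CPM beside 3042, 4019 and 3364 CPM. Among 18 growth factors and receptors Gas6, the ligand of the TAM receptor kinases, Angpt2 and Mdk, the heparin-binding factor midkine, were higher and Sema3c was lower; Gas6 was at 1273, 1826 and 1347 CPM beside 409.7, 584 and 475 CPM. Chemokine Cxcl12, a retention factor for leukocytes and progenitors, was at 524, 844 and 956 CPM in the members, 2.52, 3.68 and 3.32 times the Pi16 gate. Igfbp3 was 10.4, 2.92 and 3.87 times, Apoe 2.39, 2.57 and 2.32 times and Rbp4, the carrier of retinol, 2.03, 14.6 and 6.50 times the Pi16 gate. None of 15 glucocorticoid response genes and none of the 5 glucocorticoid activation and receptor genes compared was 2-fold different in all libraries, which is near the 1.90% and 2.89% of all genes.

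Fbn1 (ENSMUSG00000027204, chr2:125300594-125507993, minus strand), the targeted gene, was at 571 CPM in WT (532 to 614), 126 in mgR (119.5 to 133) and 112 in mgR-LOS (104 to 120.5). It was lower in both mutant libraries than in WT, and mgR over WT was 0.221 (0.202 to 0.242). The Pi16 gate held more Fbn1 in each library, 1316, 727 and 569 CPM, and there mgR over WT was 0.552 (0.533 to 0.572). Fbn1 was thus below WT in both libraries labelled with the hypomorphic allele.

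Between mgR and WT, the highest ratios in the members were those of Ccl2, Cthrc1, Cxcl2 and Thbs1, and the lowest were those of Angptl7, Fbn1, Cilp and Igfbp3. Of 2862 genes with a mean of at least 50 CPM over the 3 libraries, 216 (7.55%) were at least 1.5-fold higher in mgR and 124 (4.33%) at least 1.5-fold lower, with a median ratio of 0.996 over all 2862. The minimum is a mean over the libraries, so genes such as Ccl2, Ccl7, Cxcl2 and Zbtb16 passed it only through the libraries where they stood high, and the counts by family given below are partly set by it. A family's count is to be read beside these shares of all genes, and 1 or 2 genes of a short list lie near them. In the Pi16 gate the shares were 7.81% and 4.72% of 2921 genes. These are size rules and not tests, and the cells that entered the gate also differed between libraries in depth and in the number of rule genes seen, whose part in the differences was not tested.

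Thbs1, which encodes thrombospondin-1, an activator of latent TGF-beta, was at 65.2 CPM in WT (52.2 to 80.4), 938 in mgR (919 to 957) and 312 in mgR-LOS (298 to 326). Its ratio of mgR to WT was 14.4 (11.7 to 18.0), and the mgR-LOS level lay between the others. After thinning, 6.72% of members carried a Thbs1 UMI in WT, 45.6% in mgR and 24.5% in mgR-LOS, beside 8.80%, 16.2% and 5.33% in the immune gate and 1.40%, 8.80% and 3.95% in the smooth muscle gate. In the Comp gate the shares were above the members in every library and differed less between libraries, at 67.3%, 71.5% and 59.8%, and the Thbs1 level was 2361, 2632 and 1969 CPM. Fn1, fibronectin, was at 99.6 CPM in WT (83.4 to 118), 879 in mgR (861 to 898) and 205 in mgR-LOS (194 to 216). Its level in mgR was 8.83 (7.44 to 10.6) times that in WT. Fn1 in the smooth muscle gate was 455, 1749.6 and 544 CPM and in the immune gate 432, 856 and 725 CPM, the latter above the members in WT and mgR-LOS; the part of free RNA in the members' Fn1 was not tested. Ccn3, a matricellular protein also called Nov, was at 77.1 CPM in WT, 577 in mgR and 246 in mgR-LOS, and in the smooth muscle gate at 1233, 2065 and 1759 CPM. Cthrc1, a secreted protein of activated fibroblasts, was at 12.0 CPM in WT (6.85 to 19.5), 215 in mgR (206 to 224) and 14.1 in mgR-LOS (11.3 to 17.4). Its level in mgR was 18.0 times that in WT, and the immune gate held no UMI of it in WT (which allows up to 2.51 CPM), 1.62 CPM in mgR and 0.169 CPM in mgR-LOS. Col12a1, a fibril-associated collagen chain, was at 12.7 CPM in WT, 121 in mgR and 47.5 in mgR-LOS. Thy1, a surface antigen of fibroblasts, was at 26.2 CPM in WT, 201 in mgR and 112 in mgR-LOS, and Lox, the enzyme that cross-links elastin and collagen, was at 392.48 CPM in WT, 817 in mgR and 349.7 in mgR-LOS with a ratio of mgR to WT of 2.08 (1.91 to 2.28).

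**Figure D4:**
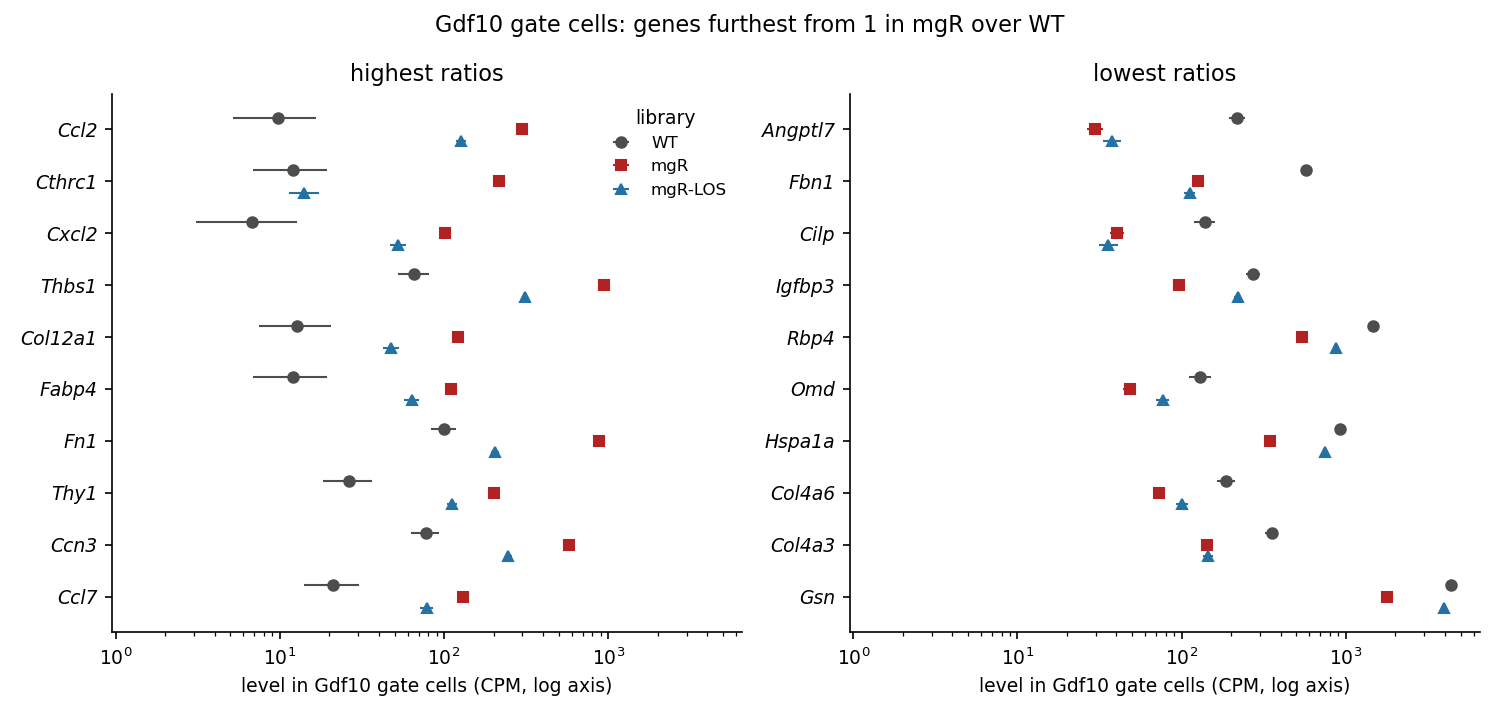
Summed level in Gdf10 gate cells (CPM, log axis) of the 10 genes with the highest (left) and the 10 with the lowest (right) ratio of mgR to WT, 1 point per library (WT circles, mgR squares, mgR-LOS triangles) with 95% Poisson intervals. All 10 genes on the left are lowest in WT and highest in mgR, with mgR-LOS between them, and Fbn1 and Cilp on the right are lowest in mgR-LOS.

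In a list of chemokines and cytokines that also held receptors and adhesion molecules, 9 of the 15 at 50 CPM (32 listed) stood higher in mgR than in WT and 0 lower, with a median ratio of 1.61. The higher ones were the chemokines Cxcl1, Cxcl2, Cxcl12, Ccl2 and Ccl7, the cytokine Il6, the interleukin-1 receptor gene Il1r1 and the adhesion molecule genes Vcam1 and Icam1. The symbols Ccl19 and Ccl21a each stand on 2 rows of the files and were left out of this count. For Ccl19, 1 row had no UMI in the members and the other was at 234, 149 and 123 CPM, a ratio of mgR to WT of 0.636. Levels of Ccl21a are not given here. Ccl2, the main monocyte chemoattractant, was at 9.74 CPM in WT (5.18 to 16.7), 297 in mgR (287 to 308) and 126 in mgR-LOS (118 to 136), 30.5 (17.8 to 57.4) times WT, and Ccl7, a related chemokine, was at 21.0 CPM in WT, 131 in mgR and 78.3 in mgR-LOS. The neutrophil chemoattractants Cxcl1 and Cxcl2 were at 220.2 CPM in WT, 976 in mgR and 433 in mgR-LOS and at 6.74 CPM in WT, 102 in mgR and 52.3 in mgR-LOS. Il6 was at 193 CPM in WT, 477 in mgR and 389 in mgR-LOS. Immune cells make several of these, with Ccl2 at 1791, 1178 and 1030.1 CPM and Cxcl2 at 6573, 5646 and 4154 CPM in the immune gate. Cxcl1 was at 493, 520.0 and 442 CPM there, above the members in WT and mgR-LOS. The mgR library held the largest immune gate. Il6 was at 31.0, 57.6 and 47.3 CPM in the immune gate, below the members in every library, as was Thy1 (18.4, 11.2 and 15.034 CPM). The part of free immune RNA in any of these genes was not tested. Of complement genes, 5 of the 9 at 50 CPM (20 listed) stood higher in mgR than in WT and 0 lower, with a median ratio of 1.70. C3, the central component, was at 284 CPM in WT, 489 in mgR and 265 in mgR-LOS, and C2, a component of its convertase, was at 24.7 CPM in WT, 86.7 in mgR and 82.8 in mgR-LOS. Ptgs2, the inducible cyclooxygenase COX-2, was at 157 CPM in WT, 834 in mgR and 535 in mgR-LOS, and Fabp4, a fatty acid binding protein of adipocytes, endothelium and macrophages, was at 12.0 CPM in WT, 110.3 in mgR and 63.4 in mgR-LOS beside 96.5, 103 and 120.1 CPM in the smooth muscle gate. Adipocyte markers summed to 2.25, 1.08 and 1.12 CPM in the members. Of the interferon response genes, 3 of the 6 at 50 CPM (23 listed) stood higher in mgR than in WT and 0 lower, with a median ratio of 1.48, with Ifi27l2a at 127 CPM in WT, 360.4 in mgR and 194 in mgR-LOS.

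Among matrix families in mgR the direction was mixed. Of collagen chains, 5 of the 19 at 50 CPM (30 listed) stood higher in mgR than in WT and 4 lower, with a median ratio of 1.07. Col4a1 and Col4a2, the common chains of basement membrane collagen, were higher, at 834 CPM in WT, 1338 in mgR and 896 in mgR-LOS and 367 CPM in WT, 691 in mgR and 486 in mgR-LOS, while Col4a3, Col4a4 and Col4a6, chains of the less widespread networks, were lower, with Col4a3 at 353 CPM in WT, 144 in mgR and 144 in mgR-LOS and Col4a6 at 186 CPM in WT, 73.1 in mgR and 100.4 in mgR-LOS. Col15a1, a collagen of basement membrane zones, was at 415 CPM in WT, 180.3 in mgR and 305 in mgR-LOS. Of elastic fiber and microfibril genes, 7 of the 16 at 50 CPM (22 listed) stood higher in mgR than in WT and 4 lower, with a median ratio of 1.16; Mfap4, a fibrillin-binding microfibril protein, was at 2019 CPM in WT, 1003 in mgR and 859.9 in mgR-LOS, Eln, elastin itself, at 3279 CPM in WT, 3949 in mgR and 2092 in mgR-LOS, and Efemp1, fibulin-3, at 15.7 CPM in WT, 70.7 in mgR and 66.1 in mgR-LOS. Of small leucine-rich proteoglycans, 1 of the 10 at 50 CPM (14 listed) stood higher in mgR than in WT and 3 lower, with a median ratio of 0.933. Dcn, decorin, which the gate requires, was at 12087 CPM in WT (11902 to 12275), 6977 in mgR (6926 to 7028) and 12156 in mgR-LOS (12070.0 to 12243), lowest in mgR, and raising its limit from 20 to 40 lowered the share of members from 39.7% to 34.8% in mgR. Of metalloproteinases, their inhibitors and other matrix enzymes, 6 of the 21 at 50 CPM (36 listed) stood higher in mgR than in WT and 4 lower, with a median ratio of 0.990, including Timp1, an inhibitor of metalloproteinases, at 181 CPM in WT, 432 in mgR and 178 in mgR-LOS and stromelysin Mmp3 at 229 CPM in WT, 509 in mgR and 394 in mgR-LOS.

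Genes lower in mgR included Angptl7, an angiopoietin-like secreted protein, at 218 CPM in WT (194 to 244), 29.6 in mgR (26.4 to 33.2) and 37.6 in mgR-LOS (33.0 to 42.7). Its ratio of mgR to WT was 0.136 (0.115 to 0.160), and mgR-LOS stayed near mgR. Igf1, insulin-like growth factor 1, was at 811 CPM in WT, 390.5 in mgR and 394 in mgR-LOS, lower than WT by a like factor in both mutant libraries, and Igfbp3 was at 272 CPM in WT, 96.9 in mgR and 219 in mgR-LOS. Rbp4 was at 1464 CPM in WT (1399 to 1529.9), 543 in mgR (529 to 558) and 865 in mgR-LOS (842 to 888). The Pi16 gate differed more in Rbp4, at 719.7, 37.2 and 133 CPM, and so did the smooth muscle gate, at 261, 47.7 and 51.3 CPM. Gsn, the actin-severing protein gelsolin, was at 4371 CPM in WT, 1779 in mgR and 3942 in mgR-LOS, and the matrix proteins Cilp and Omd were at 139 CPM in WT, 40.2 in mgR and 35.7 in mgR-LOS and 129.6 CPM in WT, 48.3 in mgR and 76.8 in mgR-LOS. The heat shock gene Hspa1a was at 915 CPM in WT, 344 in mgR and 742 in mgR-LOS, Hspa1b, a near-identical copy that can share its reads, was at 930.3 CPM in WT, 379 in mgR and 689.6 in mgR-LOS. They were the 2 of 21 immediate early and heat shock genes that stood lower in mgR, and Ier3 and Zfp36 stood higher. Hspa1a showed the same order in the smooth muscle gate, 461, 186 and 454 CPM, and in the immune gate, 809, 534 and 786 CPM; it is induced during tissue dissociation, the part of which was not tested.

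Between mgR-LOS and mgR, the lowest ratios in the members were those of Cthrc1, Col8a1, Tnfrsf11b and Fn1, and the highest were those of Zbtb16, Clec3b, Lsamp and Myh11. Of the 2862 genes, 103 (3.60%) were at least 1.5-fold higher in mgR-LOS than in mgR and 140 (4.89%) at least 1.5-fold lower, with a median ratio of 0.984. The Pi16 gate had 2.81% and 2.16% of 2921 genes past the same limits. The mgR library enters both comparisons, so they are not independent, and the levels of all 3 libraries are therefore given together. The file headers give Cell Ranger 5.0.1 for mgR and 6.0.1 for mgR-LOS, although the submitters' notes give 6.0.1 for both. Any part of the software version in this comparison cannot be told apart from that of losartan.

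The lowest ratio of mgR-LOS to mgR among these genes was that of Cthrc1, 0.0655 (0.0523 to 0.0810), with 14.1 CPM in mgR-LOS beside 12.0 in WT. Col8a1, a short-chain collagen of vessel walls, was at 197 CPM in WT (174 to 222), 275 in mgR (265 to 285) and 41.6 in mgR-LOS (36.7 to 47.0), 0.151 (0.133 to 0.172) times mgR and also below WT. Ccn5, a matricellular protein without the domain that binds heparin in its relatives, was at 438 CPM in WT, 543 in mgR and 128 in mgR-LOS, and Ccn2, connective tissue growth factor, was at 1789 CPM in WT (1718 to 1862), 2347 in mgR (2317 to 2377) and 817 in mgR-LOS (795 to 840.0), both likewise below WT. Tnfrsf11b, osteoprotegerin, was at 142 CPM in WT, 101 in mgR and 21.6 in mgR-LOS. Fn1 was 0.233 (0.219 to 0.247) times and Thbs1 0.333 (0.317 to 0.349) times mgR, both above their WT levels in mgR-LOS. Serpina3n, a protease inhibitor of the acute phase, was at 127 CPM in WT, 524 in mgR and 177 in mgR-LOS. Fhl2 was at 57.7 CPM in WT, 272 in mgR and 87.4 in mgR-LOS, and in the Pi16 gate at 4.82, 41.8 and 8.15 CPM, with the same order of libraries.

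**Figure D5:**
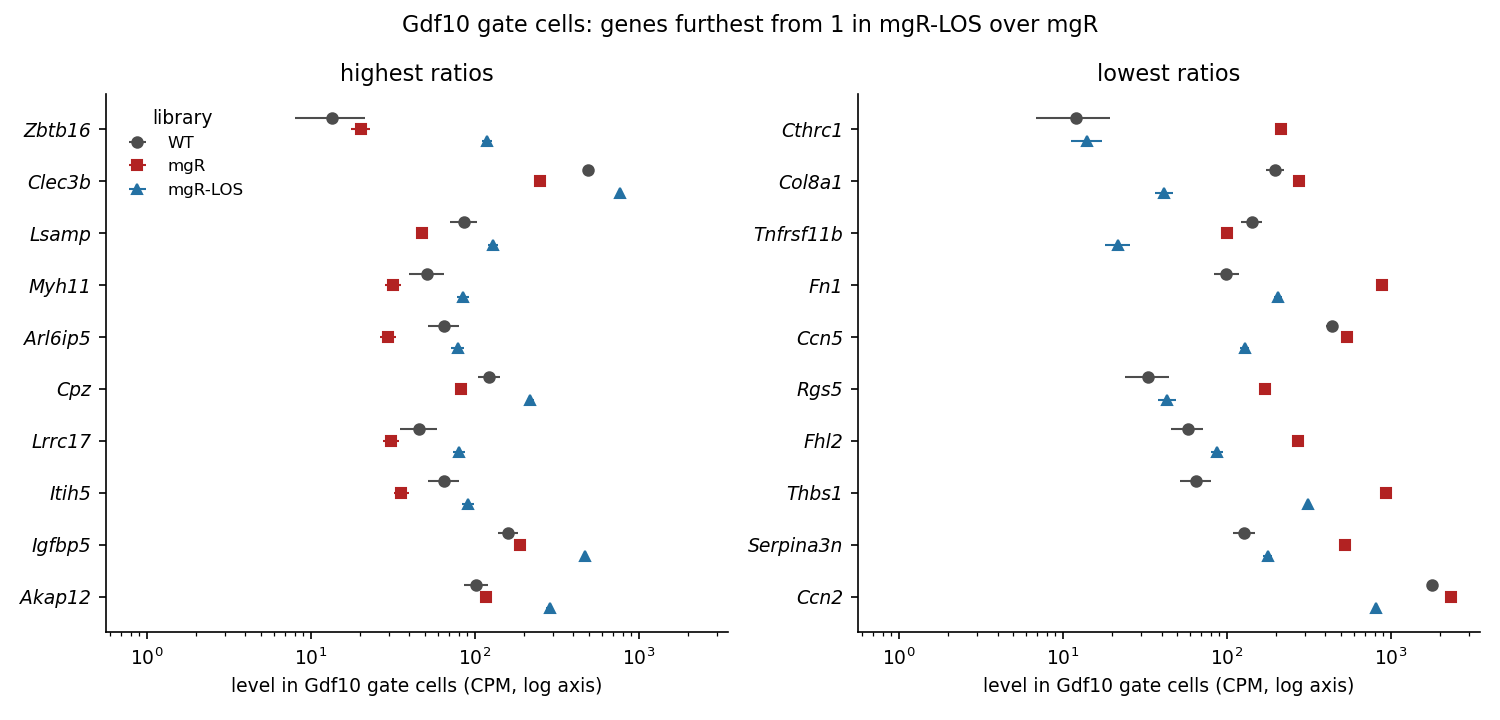
Summed level in Gdf10 gate cells (CPM, log axis) of the 10 genes with the highest (left) and the 10 with the lowest (right) ratio of mgR-LOS to mgR, 1 point per library (WT circles, mgR squares, mgR-LOS triangles) with 95% Poisson intervals. Zbtb16 stands apart on the left, with WT and mgR at 13.5 and 20.2 CPM and mgR-LOS at 119 CPM. On the right the mgR-LOS levels of Cthrc1, Rgs5, Fn1, Fhl2 and Serpina3n lie nearer WT than mgR. Those of Col8a1, Tnfrsf11b, Ccn5 and Ccn2 lie below WT, and that of Thbs1 lies between WT and mgR.

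Zbtb16, a transcriptional repressor induced by glucocorticoids in many cells, was at 13.5 CPM in WT (7.99 to 21.3), 20.2 in mgR (17.5 to 23.1) and 119 in mgR-LOS (111 to 128), and its level in mgR-LOS was 5.90 (5.04 to 6.92) times that in mgR. The same gene was at 16.8, 29.1 and 123 CPM in the Pi16 gate, 9.87, 14.0 and 109.5 CPM in the Comp gate, 32.7, 16.7 and 138 CPM in the smooth muscle gate and 5.03, 9.23 and 51.4 CPM in the immune gate, so it stood highest in mgR-LOS in each of these gates. Clec3b, tetranectin, was at 494 CPM in WT (457 to 533), 249 in mgR (239.6 to 259) and 773 in mgR-LOS (752 to 795), above WT in mgR-LOS and below it in mgR. Igfbp5 was at 160.3 CPM in WT, 188 in mgR and 470.1 in mgR-LOS and Akap12, a scaffold of protein kinase A, at 102 CPM in WT, 117 in mgR and 287 in mgR-LOS, each near WT in mgR. Cpz, a carboxypeptidase that binds Wnt proteins, was at 122 CPM in WT, 82.9 in mgR and 219 in mgR-LOS. The mgR-LOS level of Dcn was 1.74 (1.72 to 1.76) times and that of Gsn 2.22 (2.17 to 2.26) times mgR, each near its WT level. Postn, periostin, differed from these in order, at 112 CPM in WT (95.1 to 132), 346 in mgR (335 to 358) and 546 in mgR-LOS (528 to 565), highest in mgR-LOS.

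In the list of chemokines, cytokines, their receptors and adhesion molecules, 0 of 15 stood higher in mgR-LOS than in mgR and 6 lower, with a median ratio of 0.811. The lower ones were the chemokines Cxcl1, Cxcl2, Ccl2 and Ccl7, the chemokine receptor gene Ackr3 and the adhesion molecule gene Vcam1. Of complement genes, 0 of 9 stood higher in mgR-LOS than in mgR and 4 lower, with a median ratio of 0.797. Of elastic fiber and microfibril genes, 1 of 16 stood higher in mgR-LOS than in mgR and 6 lower, with a median ratio of 0.816, with Eln 0.530, Lox 0.428 and Fbln5, a fibulin required for elastic fibers, 0.642 times mgR. Of collagen chains, 2 of 19 stood higher in mgR-LOS than in mgR and 2 lower, with a median ratio of 1.12, and Col1a1 was 1.28 times mgR. Of small leucine-rich proteoglycans, 3 of 10 stood higher in mgR-LOS than in mgR and 1 lower, with a median ratio of 1.02; the higher ones were Dcn, on which the rule sets a limit, Omd and Ecm2.

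Of 18 other BMP and GDF ligands listed, 3 reached 50 CPM in the members, and Bmp7, Gdf3, Nodal, Amh and Mstn had no UMI in any library. Bmp4 was at 206 CPM in WT, 124 in mgR and 134 in mgR-LOS and Inhba, the chain of activin A, at 28.5 CPM in WT, 87.3 in mgR and 46.9 in mgR-LOS. Of TGF-beta ligands and latent binding proteins, 1 of the 7 at 50 CPM (9 listed) stood higher in mgR than in WT and 2 lower, with a median ratio of 0.734, and 0 of 7 stood higher in mgR-LOS than in mgR and 2 lower, with a median ratio of 0.978, where over all genes 7.55% and 4.33% were higher and lower in the first comparison and 3.60% and 4.89% in the second. Ltbp4, which holds latent TGF-beta in the matrix, was at 1063 CPM in WT, 617 in mgR and 687 in mgR-LOS, Ltbp1 at 170.0 CPM in WT, 74.2 in mgR and 83.6 in mgR-LOS, and Ltbp2, which binds fibrillin but not latent TGF-beta, at 169 CPM in WT, 225 in mgR and 86.0 in mgR-LOS. Tgfb2 was at 74.2 CPM in WT, 95.9 in mgR and 61.0 in mgR-LOS and Tgfb3 at 121 CPM in WT, 83.6 in mgR and 110.0 in mgR-LOS. Of 21 receptors and Smads listed, 10 reached 50 CPM. Among these the ones past 1.5-fold between mgR and WT were Smad7, the inhibitory Smad that TGF-beta itself induces, at 228 CPM in WT, 366 in mgR and 258 in mgR-LOS, and the pseudoreceptor Bambi at 122 CPM in WT, 68.1 in mgR and 102 in mgR-LOS. Tgfbr2 was at 181 CPM in WT, 240.0 in mgR and 207 in mgR-LOS and Bmpr2 at 173 CPM in WT, 182 in mgR and 169.7 in mgR-LOS. Of 5 secreted antagonists 3 were higher in mgR, among them the activin antagonist Fst at 159.5 CPM in WT, 392.47 in mgR and 227 in mgR-LOS and the BMP antagonist Chrdl1 at 36.0 CPM in WT, 82.9 in mgR and 63.7 in mgR-LOS. The other was Nbl1, at 65.9 CPM in WT, 116 in mgR and 107 in mgR-LOS, whose direction turned when the Gdf10 sum did not need to lead. Of 10 target genes 2 were higher and 2 lower in mgR than in WT, and 2 were higher and 4 lower in mgR-LOS than in mgR. The lower group in mgR-LOS included Ccn2, Ltbp2 and Pmepa1, a feedback inhibitor at 1138 CPM in WT, 1039 in mgR and 673 in mgR-LOS, whereas the target Tgfbi was lowest in mgR, at 359 CPM in WT, 178 in mgR and 377 in mgR-LOS, and Id3, a target of BMP signaling, was at 1801 CPM in WT, 1880.2 in mgR and 1655 in mgR-LOS.

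The glucocorticoid genes were listed because Hsd11b1 chose the cells. H6pd, which supplies the cofactor of Hsd11b1, was at 83.1 CPM in WT, 108 in mgR and 80.7 in mgR-LOS, and the glucocorticoid receptor Nr3c1 was at 202 CPM in WT (179 to 228), 191 in mgR (183 to 199.9) and 213 in mgR-LOS (201 to 224), past 1.5-fold in neither comparison. The mineralocorticoid receptor Nr3c2 was at 3.00 CPM in WT, 1.77 in mgR and 4.96 in mgR-LOS, and Hsd11b2, the enzyme of the opposite direction, at 18.7 CPM in WT, 4.43 in mgR and 15.046 in mgR-LOS. Of glucocorticoid response genes, 4 of the 15 at 50 CPM (17 listed) stood higher in mgR than in WT and 0 lower, with a median ratio of 1.20, and 1 of 15 stood higher in mgR-LOS than in mgR and 3 lower, with a median ratio of 1.05. Fkbp5, a chaperone that dampens the receptor, was at 45.7 CPM in WT, 58.1 in mgR and 75.4 in mgR-LOS, and Tsc22d3, the leucine zipper protein GILZ, was at 183 CPM in WT, 129 in mgR and 140.1 in mgR-LOS. Per1, the clock gene, was at 44.9 CPM in WT, 87.4 in mgR and 70.1 in mgR-LOS, Sgk1, a kinase, at 73.4 CPM in WT, 146 in mgR and 65.1 in mgR-LOS, and the metallothioneins Mt1 and Mt2 were lowest in mgR-LOS, at 3309.8 CPM in WT, 3956 in mgR and 2383 in mgR-LOS and 549.8 CPM in WT, 800.0 in mgR and 353 in mgR-LOS. The gene higher in mgR-LOS was Zbtb16, which passed the minimum through that library alone, and the lower ones were Sgk1, Mt1 and Mt2. Over all genes 7.55% and 4.33% were higher and lower in mgR than in WT, and 3.60% and 4.89% in mgR-LOS than in mgR.

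Losartan blocks the type 1 angiotensin receptor, and Agtr1a, a gene of this receptor, was barely seen in these cells. Agtr1b, the other gene listed for the receptor, is not described here. Agtr1a had 1, 67 and 23 UMIs in all the members of WT, mgR and mgR-LOS, or 0.749 CPM in WT, 6.59 in mgR and 3.68 in mgR-LOS, a WT value that rests on 1 UMI. Ace, the angiotensin-converting enzyme, was at 334 CPM in WT, 257 in mgR and 190.3 in mgR-LOS, lowest in mgR-LOS, and of the 4 renin-angiotensin genes at 50 CPM only the aminopeptidase Anpep was past 1.5-fold between mgR and WT or between mgR-LOS and mgR, at 65.2 CPM in WT, 41.1 in mgR and 67.2 in mgR-LOS. In the Pi16 gate Agtr1a was at 4.05, 8.86 and 8.27 CPM and in the smooth muscle gate at 2.67, 1.93 and 3.00 CPM.

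Pericyte markers differed between the libraries in part. Rgs5, a regulator of G protein signaling typical of pericytes, was at 33.0 CPM in WT (23.9 to 44.2), 171 in mgR (164 to 179.7) and 43.2 in mgR-LOS (38.2 to 48.7), and Notch3, the Notch receptor of mural cells, at 17.2 CPM in WT (10.9 to 25.8), 92.1 in mgR (86.3 to 98.2) and 56.8 in mgR-LOS (51.1 to 63.1). Both stood past 1.5-fold higher in mgR than in WT and lower again in mgR-LOS, whereas Abcc9 and Kcnj8 were not past 1.5-fold in either comparison. In the Pi16 gate Rgs5 was at 29.1, 7.77 and 18.1 CPM and in the smooth muscle gate at 109, 33.8 and 44.977 CPM. After thinning, 3.73% of members carried an Rgs5 UMI in WT, 7.98% in mgR and 4.53% in mgR-LOS, against 0 of 125 barcodes (which allows a share of up to 2.40%), 1.04% and 0.865% of the immune gate, so the level rested on few cells. The Comp gate carried an Rgs5 UMI in 5.56%, 8.39% and 10.9% of thinned barcodes, no lower than the members in any library and highest in mgR-LOS. Acta2 and Tagln in the members, at 504 CPM in WT, 765 in mgR and 787 in mgR-LOS and 514 CPM in WT, 836 in mgR and 574 in mgR-LOS, lay below the immune gate, which held 2159, 2009 and 3797 CPM and 1464, 1572 and 2784 CPM, a gate without a limit on smooth muscle transcript, and the part of free RNA in them was not tested. Of the 7 smooth muscle markers at 50 CPM, Acta2, Tagln and Tpm2 stood past 1.5-fold higher in mgR than in WT and Myh11 past 1.5-fold lower, at 50.9 CPM in WT, 31.9 in mgR and 85.0 in mgR-LOS; the rule limits the sum of these 4 genes with Cnn1 and Myl9.

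Of 61 transcription factors listed, 23 reached 50 CPM, of which 6 were higher and 2 lower in mgR than in WT, and 3 higher and 1 lower in mgR-LOS than in mgR, beside 7.55%, 4.33%, 3.60% and 4.89% of all genes. Runx1 was at 53.2 CPM in WT, 122 in mgR and 61.3 in mgR-LOS and Meox2 at 28.5 CPM in WT, 68.0 in mgR and 71.1 in mgR-LOS, while Tcf21, a factor of epicardial and adventitial fibroblasts, was at 308 CPM in WT, 192 in mgR and 160.4 in mgR-LOS, and Osr1 at 88.4 CPM in WT, 52.3 in mgR and 127 in mgR-LOS. Nfib was at 874 CPM in WT, 918 in mgR and 1152 in mgR-LOS. Of fibroblast activation genes, 6 of the 11 at 50 CPM (17 listed) stood higher in mgR than in WT and 1 lower, with a median ratio of 1.52, and the higher ones were Postn, Cthrc1, Thy1, Sfrp1, Cdh11 and Acta2, the last with the limit just given. Cell cycle genes summed to 75.6, 115 and 86.0 CPM, and only Pcna of 10 reached 50 CPM.

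Of the genes with large differences between libraries, some also differed in the Pi16 gate and others did not. In the Pi16 gate Thbs1 was at 166, 496 and 250.3 CPM, Fn1 at 763, 2164 and 1396 CPM, Cthrc1 at 29.9, 493 and 85.1 CPM and Ccl2 at 116, 522 and 254 CPM, and the ratios of mgR to WT were 3.00, 2.84, 16.5 and 4.51 beside 14.4, 8.83, 18.0 and 30.5 in the members. For mgR-LOS over mgR the Pi16 gate had 0.504, 0.645, 0.173 and 0.486 beside 0.333, 0.233, 0.0655 and 0.425. The direction was the same for each of these 4 genes, and no test of the difference between the gates was possible with 1 library per condition. For mgR-LOS over mgR, Igfbp5 was at 2.50 in the members and 0.906 in the Pi16 gate, and Rgs5 at 0.252 and 2.33. The ratios of mgR to WT lay on opposite sides of 1 for Rgs5, at 0.267 in the Pi16 gate and 5.20 in the members, and for Il6, at 0.776 and 2.47. Eln was 0.461 times WT in the Pi16 gate and 1.20 times in the members, at 4362, 2011 and 1179.7 CPM and 3279, 3949 and 2092 CPM.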

How the data were processed

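Counts were used as the authors deposited them, as UMI counts per gene and barcode for 32285 genes, aligned to mm10 with Cell Ranger (5.0.1 in the file headers of WT and mgR, 6.0.1 in that of mgR-LOS and in the submitters' processing notes). No cell annotation was used. Barcodes were gated by the limits given above, and UMIs were summed per gate and library and scaled to CPM. The endothelial gate required a UMI of both Pecam1 and Cdh5, Dcn under 5 per 10000 and no UMI of Ptprc. Intervals are exact Poisson for levels, Clopper-Pearson for shares, exact conditional binomial for ratios and Newcombe for differences of shares. For shares of cells with a UMI, barcodes were thinned to 2000 UMIs, which left out 8, 11 and 28 members of WT, mgR and mgR-LOS. No doublet caller was run and no difference was tested, since each condition was 1 library of pooled mice. Python 3.11.15, numpy 2.4.6, pandas 2.3.3, scipy 1.17.1 and statsmodels 0.14.6 were used, and the ratios and their intervals were tested on simulated data.

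The named genes were those of the label and the rule, Fbn1, the 15 highest and 10 lowest ratios between the gates (ranked by the library nearest 1), the 10 highest and 10 lowest between conditions, and, from each of 42 lists, the 4 highest means and the 2 largest ratios past 1.5-fold in each comparison. Ratios between the gates required a mean of at least 50 CPM over both gates. Ratios between conditions required a mean of at least 50 CPM in the members. The 4 highest means of a list had no minimum. Other genes in the text, such as Agtr1a, Fkbp5, Tsc22d3, Tgfbi, Tcf21, Col15a1, Hsd11b2 and Ly6a, were picked after their values were seen. The cells and the lists were chosen with earlier results of these data known, and counts per list are given beside those over all genes compared.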

Additional observations from a re-analysis of the deposited data

Results flagged for a closer look

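Itih5, which encodes a heavy chain that binds hyaluronan, went in opposite directions in the gates. In the Gdf10 gate it was at 65.2 CPM in WT and 35.7 in mgR, a ratio of 0.548 (0.433 to 0.701). In the Pi16 gate it was at 177 CPM in WT and 288 in mgR, a ratio of 1.63 (1.51 to 1.76). It was the only named gene at 50 CPM in both gates that was past 1.5-fold in opposite directions, and with 1 library per condition the difference between the gates was not tested.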

How the results depend on the processing

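No paired analysis was possible because each condition was 1 library. The order of the shares, WT below mgR-LOS below mgR, was the same under every setting tried. In WT, mgR and mgR-LOS the share was 8.18%, 32.0% and 21.5% with the Gdf10 sum at least 2 times the others, 5.46%, 23.9% and 11.9% without Gdf10 in the sum, 9.97%, 35.2% and 24.1% without Hsd11b1, 9.21%, 34.0% and 23.7% without Cpxm2, and 39.8%, 51.9% and 43.4% without the need to lead, a setting chosen after seeing the data. In mgR it was 34.8% with Dcn at 40 or more and 37.3% after thinning to 5000 UMIs, and in mgR-LOS 24.97% with a sum of at least 5 and 25.3% with at least 3 UMIs of the sum. The numbers of genes past the fold depended on the limits by their construction: with a minimum of 25 CPM, 100 CPM, or a fold of 2, higher in mgR than in WT were 370, 122 and 71 genes and lower 227, 70 and 28, and higher in mgR-LOS than in mgR were 183, 54 and 27 and lower 235, 85 and 38. Against the Pi16 gate 85 genes were higher at 25 CPM, 34 at 100 CPM and 18 at a fold of 3, at which 41 were lower.

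Named genes with a mean of at least 50 CPM in the members were followed across the settings, without the 3 rule genes of the Gdf10 gate. Of those past 1.5-fold, all 106 (mgR over WT) and all 82 (mgR-LOS over mgR) kept their direction under every setting that kept the lead. In the setting without the lead, 103 of the 106 and all 82 did. The numbers still past 1.5-fold were 88 and 68 without Gdf10 in the sum, 85 and 74 without the lead, and 91 and 71 with Dcn at 40 or more. Without the lead Cd248 had a ratio of mgR to WT of 0.913, Nbl1 of 0.885 and Tnnt2 of 1.04, and the cause was not tested. The WT members were few and held 1335111 UMIs, so a gene at 10 CPM there rests on about 13 UMIs, and the spread between mice cannot be seen in these data.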

Other observations

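Counts for further families are given beside the shares over all genes compared, 7.55% higher and 4.33% lower in mgR than in WT and 3.60% higher and 4.89% lower in mgR-LOS than in mgR, and several lie near them. Of basement membrane laminins and integrins, 2 of the 12 at 50 CPM (26 listed) stood higher in mgR than in WT and 1 lower, with a median ratio of 0.974, and 0 of 12 stood higher in mgR-LOS than in mgR and 3 lower, with a median ratio of 0.844. Itga1, a collagen receptor chain, was at 48.7 CPM in WT, 176 in mgR and 74.1 in mgR-LOS and Lamc3, a laminin chain, at 291 CPM in WT, 138 in mgR and 174 in mgR-LOS. Of Wnt ligands, receptors and antagonists, 3 of the 9 at 50 CPM (37 listed) stood higher in mgR than in WT and 1 lower, with a median ratio of 1.04, and 0 of 9 stood higher in mgR-LOS than in mgR and 3 lower, with a median ratio of 0.872. The antagonist Sfrp1 was at 321 CPM in WT, 636 in mgR and 555 in mgR-LOS and the antagonist Frzb at 98.1 CPM in WT, 63.8 in mgR and 24.0 in mgR-LOS. Of globin-fold and antioxidant genes, Cygb among them, 3 of the 17 at 50 CPM (23 listed) stood higher in mgR than in WT and 0 lower, with a median ratio of 0.948, and 2 of 17 stood higher in mgR-LOS than in mgR and 0 lower, with a median ratio of 1.05. Gpx3, a secreted glutathione peroxidase, was at 548 CPM in WT, 868 in mgR and 809.8 in mgR-LOS and Sod2, the mitochondrial superoxide dismutase, at 67.4 CPM in WT, 101 in mgR and 69.0 in mgR-LOS. Of lipid handling and adipogenic genes, 4 of the 14 at 50 CPM (30 listed) stood higher in mgR than in WT and 2 lower, with a median ratio of 0.947, and 1 of 14 stood higher in mgR-LOS than in mgR and 3 lower, with a median ratio of 1.07, with Apoe, a lipid carrier, at 4602 CPM in WT, 2387 in mgR and 3580.3 in mgR-LOS. Of other growth factors and receptors, 6 of the 19 at 50 CPM (43 listed) stood higher in mgR than in WT and 2 lower, with a median ratio of 1.14, with Vegfd, a lymphatic growth factor, at 145 CPM in WT, 311 in mgR and 190.2 in mgR-LOS.

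Of markers of cells not otherwise described, those of Schwann cells summed to 8.24, 18.6 and 20.3 CPM in the WT, mgR and mgR-LOS members. Those of mesothelium summed to 0.749, 4.82 and 2.72 CPM and those of cardiomyocytes to 127, 60.9 and 57.3 CPM, nearly all of it Tnnt2 at 112, 58.0 and 51.1 CPM.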
